A study of Mus musculus with 25 samples.

Results

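The NF-κB family analysed here comprises 10 mouse genes, which are 10 of the 24411 gene symbols counted in every sample. They are the 5 subunits Rela, Rel, Relb, Nfkb1 and Nfkb2 and 5 genes of IκB proteins, namely Nfkbia, Nfkbib, Nfkbie, Nfkbiz and Bcl3, and they were picked by symbol. Their levels were read in all 25 samples of an RNA-seq series on macrophages. BMDMs, macrophages grown from the bone marrow of C57BL/6 mice for 4 days with M-CSF at 25 ng/ml, gave 21 samples in 7 groups of 3. The groups were an untreated control labelled as a 4 h culture, cells given IFN-γ at 100 U/ml and LPS at 100 ng/ml (the M1 stimulus, IFN-γ/LPS below) for 1, 4, 12 or 24 h, and cells given IL-4 or IL-13, each at 10 ng/ml, for 12 h (the M2 stimuli). The paper calls the IFN-γ/LPS cells IFN-γ-primed but gives no priming time, so their IFN-γ exposure may be longer than the stated hours. The same 3 control samples served every BMDM comparison, so comparisons of different treatments with the control are not independent of each other. Only the 4 h IFN-γ/LPS group matched the control in labelled time. In the other BMDM comparisons with the control, treatment and culture time cannot be told apart. RAW264.7, a virus-transformed mouse macrophage-like cell line, gave 2 untreated samples and 2 samples given LPS at 100 ng/ml for 4 h, without IFN-γ. BMDM cultures are bulk samples, in which fewer cells of a type and less RNA per cell cannot be told apart.

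NF-κB transcription factors are dimers of 5 subunits. Rela, Rel and Relb encode subunits with a transactivation domain, whereas Nfkb1 and Nfkb2 encode precursors that carry IκB-like ankyrin repeats and are processed to DNA-binding subunits. In resting cells, the IκB proteins encoded by Nfkbia, Nfkbib and Nfkbie hold dimers in the cytoplasm. Toll-like receptor signalling activates the IκB kinase complex, IκB is degraded, and dimers enter the nucleus, where they act on cytokine and chemokine genes and also on Nfkbia itself, a textbook negative feedback loop. Nfkbiz and Bcl3 encode nuclear IκB proteins that bind DNA-bound dimers and modulate their targets. Messenger RNA levels, the measurement given here, show neither protein levels nor the nuclear location of a dimer.

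The κB site, the sequence that NF-κB dimers bind, is shown first, since the members include known targets of the pathway. RefSeq promoter windows (GRCm38.p6, 250 bases before to 50 after an annotated start) were available for 7 of the 10 members, namely Rela, Rel, Nfkb2, Nfkbia, Nfkbib, Nfkbie and Bcl3, and Nfkb2 had 3 windows. The stringent κB consensus, searched by name on both strands, was found in 5 of the 7 (Rel, Nfkb2, Nfkbia, Nfkbie and Bcl3) and in 8.459% of all 32851 promoter windows. The looser spaced letters GGGNNNNNCC, which share many matches with the consensus, were found in 6 of the 7 and in 50.79% of all windows. Members were counted by gene and the background by window, so Nfkb2, with 3 windows, had 3 chances of a match. No match to either lay in the Nfkbib window, and the Rela window held the spaced letters alone. The matches in Bcl3 lay after the annotated start and are not printed. The Nfkb2 windows overlap, and 1 of the matches in the second, which lay after its start, is the site printed before the third start. The sequences below run 5′ to 3′ along the gene's strand, and capitals mark consensus matches.
Rel, minus strand, chr11:23771042-23771071, with the match starting 92 bases before the start: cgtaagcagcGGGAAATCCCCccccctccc
Nfkb2, plus strand, chr19:46304688-46304717, 39 bases before the first start: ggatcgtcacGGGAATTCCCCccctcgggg
Nfkb2, plus strand, chr19:46304716-46304736, 11 bases before the first start: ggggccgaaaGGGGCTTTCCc
Nfkb2, plus strand, chr19:46305449-46305478, 236 bases before the second start: tccgacggcaGGAATGTCCCcacaaaagcc
Nfkb2, plus strand, chr19:46305695-46305724, 225 bases before the third start: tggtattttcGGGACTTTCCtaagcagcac
Nfkbia, minus strand, chr12:55492648-55492767, 29 bases before the start: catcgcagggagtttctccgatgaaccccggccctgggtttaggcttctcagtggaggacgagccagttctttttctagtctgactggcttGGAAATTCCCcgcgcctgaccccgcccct
Nfkbie, plus strand, chr17:45555580-45555699, 106 bases before the start: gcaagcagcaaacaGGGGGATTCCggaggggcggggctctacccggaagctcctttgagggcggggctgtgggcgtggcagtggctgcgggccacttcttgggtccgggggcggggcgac
The Nfkb2 windows at chr19:46304688-46304717, chr19:46304716-46304736 and chr19:46305695-46305724 overlap exons of other Nfkb2 transcripts in GENCODE M21. A match describes letters in a window, and binding was not measured.

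In GENCODE M21 coordinates on GRCm38, Rela lies at chr19:5637483-5648130, Rel at chr11:23736847-23770970, Relb at chr7:19606217-19629438, Nfkb1 at chr3:135584655-135691547 and Nfkb2 at chr19:46304320-46312385. Nfkbia lies at chr12:55489410-55492647, Nfkbib at chr7:28758251-28767512, Nfkbie at chr17:45555703-45563169, Nfkbiz at chr16:55811375-55838899 and Bcl3 at chr7:19808462-19822770. None of the 10 shares an exon with another gene on its own strand. On the opposite strand, exons of Nfkb2 overlap AC114539.1 over 531 bases and Psd over 299 bases, Nfkbib overlaps Ccer2 over 314 bases, and Bcl3 overlaps Gm16175 over 55 bases.

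Sense-strand counts on genes totalled 2378639 to 3357300 per sample, and 1502618 to 2532496 remained after leaving out the ribosomal precursor gene Rn45s, which took 20.1% to 39.8%. Levels below are CPM, the remaining counts scaled to a common library total after TMM normalization, and changes are log2 fold changes with their standard errors (SE) from edgeR. A gene was called higher or lower at an adjusted p (FDR) of at most 0.01 with a log2 change of at least 1, or at least 0.7 for IL-4 and IL-13 against the control. Scaling by library size alone instead of TMM moved the median of all genes by -0.53 (log2) at 4 h against the control, by -0.19 to -0.31 at the other times and by -0.18 in RAW264.7. The antisense share of Rn45s was 0.0386% to 0.122% in the control, 1, 4 and 12 h libraries and 0.00603% to 0.0283% in the 24 h, IL-4, IL-13 and RAW264.7 libraries. This difference between sets of libraries cannot be told apart from treatment in comparisons of IL-4, IL-13 or 24 h with the control, of 24 h with 12 h, of IL-4 or IL-13 with 12 h IFN-γ/LPS, or of the 2 cell types. All 8 macrophage markers had counts in every BMDM group (summed level 18832 to 33389 CPM), and RAW264.7 expressed 7 of the 8 (8622 to 10329.7 CPM), with Mertk at 0. Among markers of other cells, stromal genes summed to 40.1 to 118 CPM in BMDMs and to 0 in RAW264.7, and Cd4 was the only one of 4 T cell markers with a count, at 8.96 to 12.2 CPM in the control and 2.14 to 2.96 CPM at 24 h. Their part in the results was not tested.

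All 10 members rose at both 1 h and 4 h of IFN-γ/LPS, against a background of 7.46% of 9568 genes tested called higher at 1 h and 16.1% at 4 h. At 12 h, 8 of 10 were called higher (background 13.3%), and at 24 h again 8 of 10 (background 12.2%). No member was called lower than the control at any of these times. Bcl3, at 7 to 11 reads per control library, passed the filter on low counts only through treated samples. Being tested thus already required a higher level of Bcl3 with IFN-γ/LPS, so the counts of 10 and 8 are in part fixed by the filter. The median log2 change of the 10 was 2.58 at 1 h and 3.68 at 4 h, then 2.54 and 2.38 at the later times, where the median over all genes lay between -0.07 and 0.02. The 2 members not called at 12 h and 24 h were Rela and Rel.

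**Figure D1:**
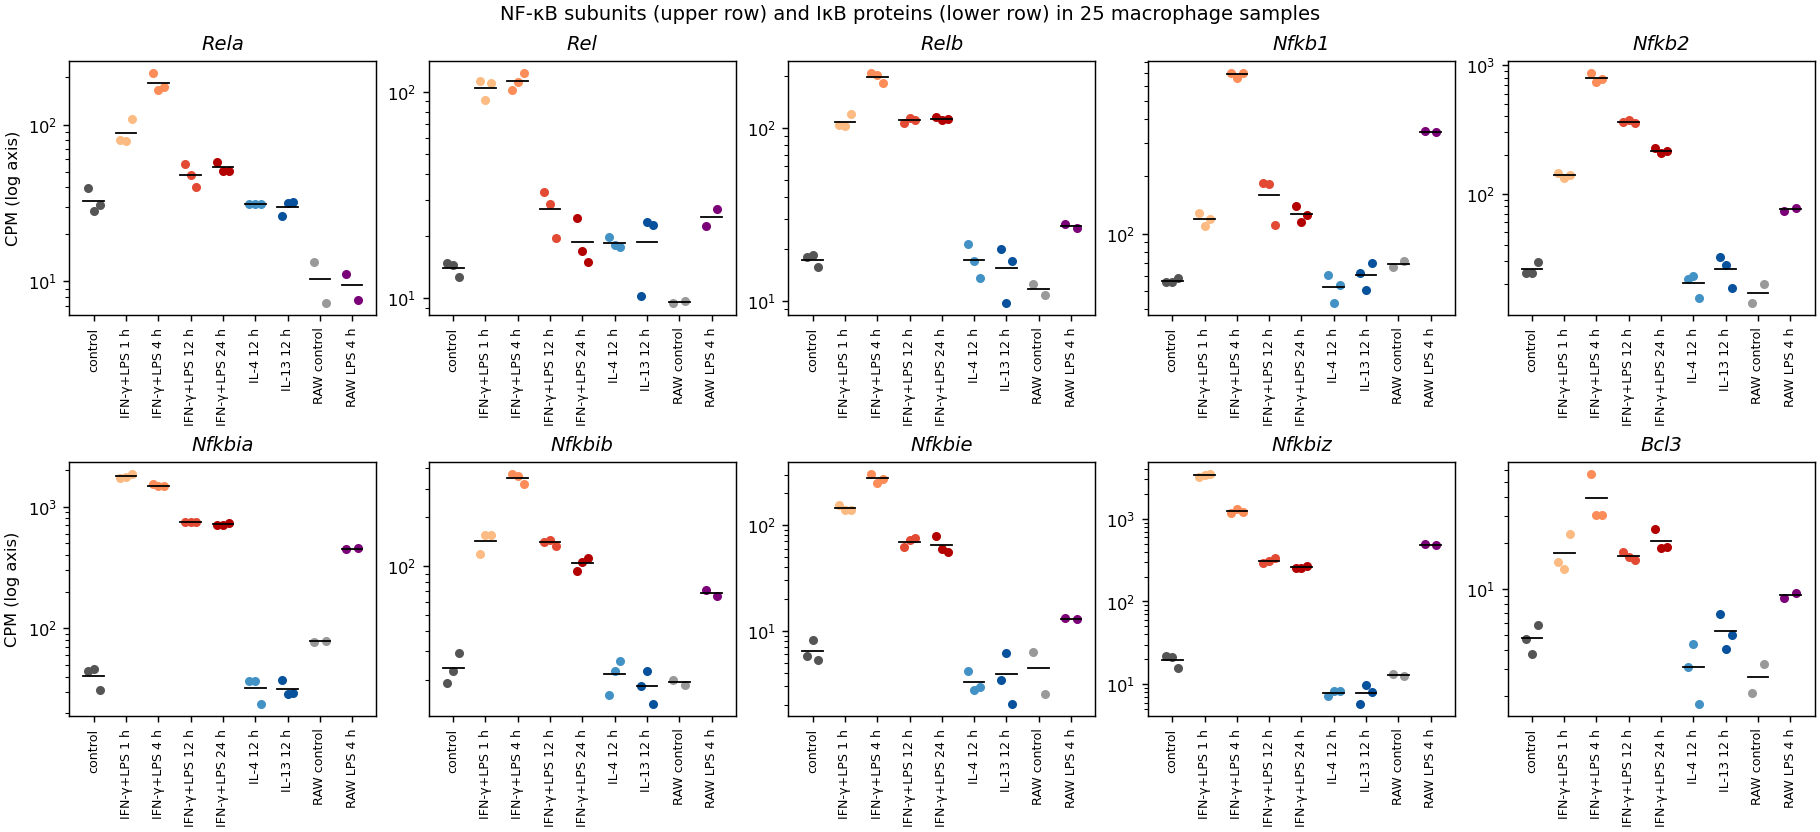
Level of each gene in each of the 25 samples, in CPM on a log axis; points are samples and lines are group means (3 samples per BMDM group, 2 per RAW264.7 group). Nfkbia and Nfkbiz are highest at 1 h, and the other 8 genes have their highest mean at 4 h. All 6 IL-4 and IL-13 samples of Nfkbiz lie below the control. The IL-4 samples of Nfkbie and Nfkb2 also lie below it and those of Rel above it. The other IL-4 and IL-13 groups overlap with the control.

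Rela, which encodes the transactivating subunit of the classical NF-κB dimer, was at 39.1, 28.1 and 30.6 CPM in the control samples. It was at 79.7, 78.2 and 109 CPM at 1 h and at 215, 166 and 175 CPM at 4 h. At 12 h the values were 56.0, 47.5 and 40.1 CPM, and at 24 h they were 58.1, 51.0 and 50.8 CPM. Every IFN-γ/LPS sample lay above every control sample, and the 12 and 24 h samples overlapped each other. Rela rose 2.66-fold at 1 h (log2 1.41 ± 0.16 SE, edgeR adjusted p = 6.05e-10) and 5.38-fold at 4 h (2.43 ± 0.15, adjusted p = 1.79e-18). The log2 change was 0.48 ± 0.18 by 12 h (adjusted p = 0.02) and 0.67 ± 0.17 at 24 h (adjusted p = 0.000734), both below the cutoff of 1.

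Rel, the gene of the c-Rel subunit, was at 14.8, 14.6 and 12.7 CPM in the control. Its level was 113, 91.7 and 110.1 CPM at 1 h and 102, 112 and 124 CPM after 4 h, so that the samples of these times overlapped. By 12 h it was at 32.7, 28.7 and 19.7 CPM, and by 24 h at 24.6, 17.0 and 14.96 CPM. The lowest 24 h sample was only just above the highest control sample. Rel rose 7.27-fold at 1 h (2.86 ± 0.18, edgeR adjusted p = 6.98e-19) and 7.60-fold at 4 h (2.93 ± 0.18, adjusted p = 3.21e-19), and its log2 change was 0.87 ± 0.22 at 12 h and 0.38 ± 0.23 at 24 h. Without the third 12 h sample, the 12 h change was 1.09 and was called.

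Relb, which encodes the usual partner of the Nfkb2 product in the alternative pathway, differed from Rela and Rel in the late samples. Control samples were at 17.98, 18.4 and 15.8 CPM, against 104, 103 and 121 CPM at 1 h and 209, 203 and 182 CPM at 4 h. The values at 12 h were 106, 114 and 112 CPM, and those at 24 h were 116, 111 and 112 CPM. The 1, 12 and 24 h samples overlapped one another, all of them above the control and below the 4 h samples. The rise was 6.08-fold at 1 h, 10.75-fold at 4 h (log2 3.43 ± 0.14, edgeR adjusted p = 3.48e-26), 6.02-fold at 12 h and 6.32-fold at 24 h (2.66 ± 0.14, adjusted p = 2.04e-21).

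Nfkb1 encodes the precursor that gives the usual partner of Rela. In the control it was at 55.5, 55.6 and 58.0 CPM, at 1 h at 128, 109.7 and 119 CPM, and at 4 h at 703, 659.6 and 705 CPM. At 12 h, 184, 183 and 111 CPM were measured, and at 24 h 139, 115 and 126 CPM. The 4 h samples stood apart from the rest, and the third 12 h sample lay below the other two and within reach of the 1 and 24 h samples. Nfkb1 had the smallest 1 h change of the family, 2.05-fold (1.03 ± 0.15, edgeR adjusted p = 5.52e-07), and rose 11.58-fold at 4 h (3.53 ± 0.14, adjusted p = 1.24e-22). The calls at 1 h and at 24 h (1.13 ± 0.15) lay close to the cutoff and were lost with library-size scaling, at 0.84 and 0.91, and the 1 h call was lost without the first 1 h sample, at 0.99.

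Nfkb2, the gene of the precursor in the alternative pathway, was at 24.3, 24.3 and 29.5 CPM in the control and at 144, 133 and 139 CPM at 1 h. It stood at 873, 741 and 774 CPM at 4 h, at 362, 373 and 353 CPM at 12 h and at 226, 208 and 214 CPM at 24 h. No sample of one of these times overlapped with a sample of another. Its 4 h rise, 28.9-fold (4.85 ± 0.12, edgeR adjusted p = 4.84e-35), was the largest among the 5 subunits. At 12 h Nfkb2 was 13.2-fold above the control (3.72 ± 0.12, adjusted p = 6.16e-30) and at 24 h 8.06-fold (3.01 ± 0.13, adjusted p = 7.83e-26).

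Nfkbia, which encodes IκBα, was highest at 1 h. The control samples were at 44.4, 46.5 and 31.1 CPM, the 1 h samples at 1721, 1737 and 1862 CPM, and the 4 h samples at 1533, 1462 and 1466 CPM. By 12 h the values were 742, 739.8 and 749 CPM, and by 24 h 703, 703 and 734 CPM. Every 1 h sample lay above every 4 h sample, and the 12 and 24 h samples stayed far above the control. Nfkbia rose 42.3-fold at 1 h (5.40 ± 0.11, edgeR adjusted p = 1.24e-37), 34.7-fold at 4 h, 17.3-fold at 12 h and 17.1-fold at 24 h (4.10 ± 0.11, adjusted p = 4.05e-33). At 12 h and 24 h this was the largest change in the family.

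Nfkbib, the gene of IκBβ, was at 19.0, 22.7 and 29.0 CPM in the control. It was at 119, 156 and 156 CPM at 1 h, 371, 362 and 322 CPM at 4 h, 141, 145 and 134 CPM at 12 h and 93.6, 106 and 113 CPM at 24 h. The 4 h samples were highest, and the 1 and 12 h samples overlapped. The rise was 5.90-fold at 1 h (2.56 ± 0.15, edgeR adjusted p = 4.09e-20), 14.1-fold at 4 h (3.82 ± 0.14, adjusted p = 2.67e-28), 5.62-fold at 12 h and 4.31-fold at 24 h. Its promoter window held no match to either κB search.

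Nfkbie, which encodes IκBε, was low in the control, at 5.82, 8.10 and 5.27 CPM. Its values were 154, 139 and 138 CPM at 1 h and 306, 251 and 271 CPM at 4 h, against 61.8, 71.6 and 75.3 CPM at 12 h and 78.3, 58.9 and 55.1 CPM at 24 h. The 1 and 4 h samples were separate, and those of 12 and 24 h overlapped. Nfkbie rose 21.6-fold at 1 h (4.43 ± 0.19, edgeR adjusted p = 6.28e-25), 40.5-fold at 4 h (5.34 ± 0.18, adjusted p = 1.29e-29), 10.2-fold at 12 h and 9.68-fold at 24 h.

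Nfkbiz, the gene of the nuclear protein IκBζ, showed the largest change of the family at both 1 h and 4 h. Control samples were at 22.2, 21.1 and 15.8 CPM, and the 1 h samples at 3189.9, 3362 and 3506 CPM. At 4 h the level was 1161, 1321 and 1193 CPM, at 12 h 292, 307 and 335 CPM, and at 24 h 254, 257 and 265 CPM. Samples of the 5 groups did not overlap, with the 1 h samples highest and each later time lower than the one before. The rise was 165-fold at 1 h (7.36 ± 0.12, edgeR adjusted p = 1.56e-41), 58.8-fold at 4 h (5.88 ± 0.12, adjusted p = 2.10e-38), 14.95-fold at 12 h and 12.8-fold at 24 h.

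Bcl3, a nuclear IκB protein known as a partner of Nfkb1 and Nfkb2 products, had the fewest reads of the family and wide errors. It was at 4.76, 3.78 and 5.80 CPM in the control, 15.1, 13.5 and 22.7 CPM at 1 h, 56.5, 30.3 and 30.4 CPM at 4 h, 17.5, 16.3 and 15.5 CPM at 12 h and 24.6, 18.5 and 18.8 CPM at 24 h. All IFN-γ/LPS samples lay above all control samples, and the first 4 h sample lay well above the other two. Bcl3 rose 3.48-fold at 1 h (1.801 ± 0.33, edgeR adjusted p = 1.51e-05), 7.59-fold at 4 h (2.92 ± 0.30, adjusted p = 6.88e-12), 3.23-fold at 12 h and 4.15-fold at 24 h.

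**Figure D2:**
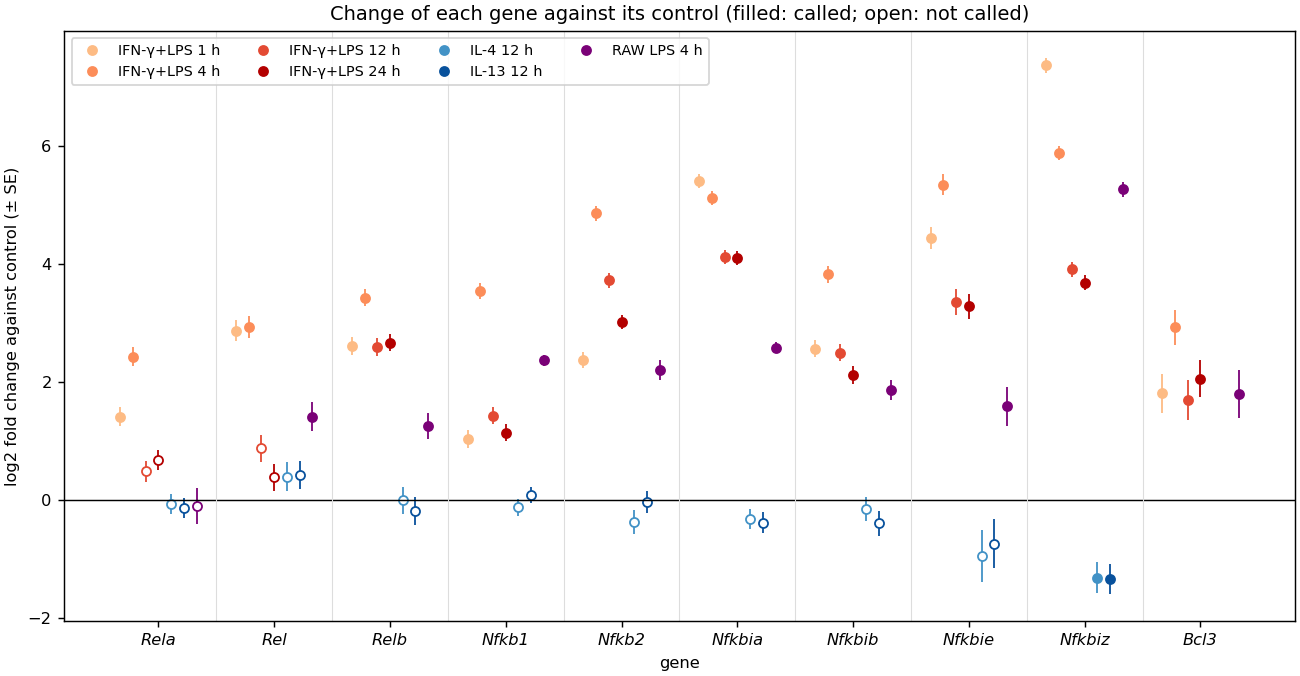
Log2 fold change of each gene against its own control, with bars of ± 1 SE; filled points were called and open points were not, and Bcl3 was not tested with IL-4 and IL-13. All 10 genes are filled at 1 and 4 h of IFN-γ/LPS, Rela and Rel are open at 12 and 24 h, and of the IL-4 and IL-13 points only those of Nfkbiz are filled, below 0.

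The steps between the time points separated the members. From 1 h to 4 h, 5 of 10 members rose (background 11.4% of genes) and 1 of 10 fell (background 11.8%). The 2 precursor genes rose most, Nfkb1 by 2.499 ± 0.13 on the log2 scale (edgeR adjusted p = 7.66e-19) and Nfkb2 by 2.49 ± 0.10 (adjusted p = 2.25e-26), followed by Nfkbib at 1.26, Bcl3 at 1.12 and Rela at 1.02. Nfkbiz fell by 1.49 ± 0.08 on the log2 scale (adjusted p = 1.94e-20). Nfkbie (0.91 ± 0.11), Relb (0.82 ± 0.11) and Nfkbia (-0.29 ± 0.09) had adjusted p-values below 0.01 but did not reach the cutoff, and the change of Rel was 0.06 ± 0.13. With library-size scaling, the number of higher members was 2, Nfkb1 and Nfkb2, and the change of Rel was -0.28. Without the second 1 h sample the number was 3, and without the first 4 h sample it was also 3, since the calls of Rela (0.94 and 0.89) and Bcl3 (0.998 and 0.76) were lost. The Rela call was also lost without the first 1 h sample (0.95).

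From 4 h to 12 h, 8 of 10 members fell (background 9.18% of genes) and none rose. The largest decreases were those of Nfkb1 (-2.11 ± 0.12, edgeR adjusted p = 1.22e-16), Rel (-2.06 ± 0.17, adjusted p = 1.17e-14), Nfkbie (-1.99 ± 0.13), Nfkbiz (-1.97 ± 0.09) and Rela (-1.95 ± 0.15). Nfkbib (-1.33), Bcl3 (-1.23) and Nfkb2 (-1.13) fell less. The Bcl3 call was lost without the first 4 h sample, at -0.87, and the Nfkb2 call with library-size scaling, at -0.91. Relb, at -0.84 ± 0.11, did not reach the cutoff. Nfkbia sat on the cutoff, with a change of -0.99992 ± 0.09 that fell just short of it (adjusted p = 1.55e-13), and DESeq2 called it at -1.01. From 12 h to 24 h no member was called by edgeR or DESeq2, although 5 of 10 had an unadjusted edgeR p below 0.05, and 1.43% of genes were called higher and 2.37% lower. The largest of these 10 changes was that of Nfkb2, -0.71 ± 0.10 (edgeR adjusted p = 7.70e-08), the only member below an adjusted p of 0.01.

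The make-up of the family shifted with these changes. Levels were divided by the merged exon length of each gene so that members could be compared, and each member's share is given as the percent of the summed CPM per kilobase of the 5 subunits or of the 5 IκB genes (mean ± SD, n = 3). Among the subunits, Nfkb1 (32.9% ± 1.9) and Rela (28.7% ± 3.7) took the largest shares in control BMDMs. Relb led at 1 h, at 31.2% ± 1.1, but from counts without the length Nfkb2 (24.8%) and Nfkb1 (21.2%) lay above Relb (19.5%). Nfkb2 led at 4 h, at 35.6% ± 0.9, and reached 44.0% ± 2.5 at 12 h, while Rela was at 8.97% ± 1.02. At 24 h, Relb (32.96% ± 0.99) and Nfkb2 (32.97% ± 0.38) had equal shares within their spread, against 21.4% and 40.9% from counts. Rel stayed between 1.62% and 8.91% of the subunit total per kilobase in every BMDM time course group, against 3.55% (24 h) to 18.7% (1 h) from counts. Among the IκB genes, Nfkbia had the largest share per kilobase in each of the 9 groups, from 54.3% ± 0.6 at 1 h to 75.2% ± 0.5 at 24 h within the time course. From counts, Nfkbiz led at 1 h (61.7% against 32.7% for Nfkbia) and in LPS-treated RAW264.7 (47.3% against 43.9%). The share of Nfkbiz per kilobase was 10.1% ± 1.2 in the control, 39.1% ± 0.4 at 1 h, 19.3% ± 1.5 at 4 h and 10.4% ± 0.1 at 24 h. That of Nfkbib went the other way, from 24.0% ± 7.1 in the control to 3.26% ± 0.40 at 1 h.

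The summed level of the IκB genes over that of the subunits, both in CPM per kilobase, was 1.03 to 1.27 in the 3 control samples (mean 1.13). It was 12.7 to 14.1 at 1 h (mean 13.2) and 2.81 to 3.05 at 4 h. The 12 h samples gave 3.16 to 3.68 and the 24 h samples 3.63 to 4.04. No IFN-γ/LPS sample overlapped with the control, and no 1 h sample with any later one. At 1 h the summed IκB level was 2070.0 ± 91.6 CPM per kilobase and the summed subunit level 158 ± 13, against 46.8 ± 4.1 and 41.6 ± 2.0 in the control. The 4 h samples reached 1538 ± 43 and 529 ± 32. The ratio of Nfkbia to Rela alone was 2.18 ± 0.58 in the control, 35.0 ± 4.8 at 1 h and 13.9 ± 1.5 at 4 h. From counts without the length, the mean ratio of IκB genes to subunits was 0.651 in the control, 9.72 at 1 h and 1.71 at 4 h. No test was run on these ratios.

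**Figure D3:**
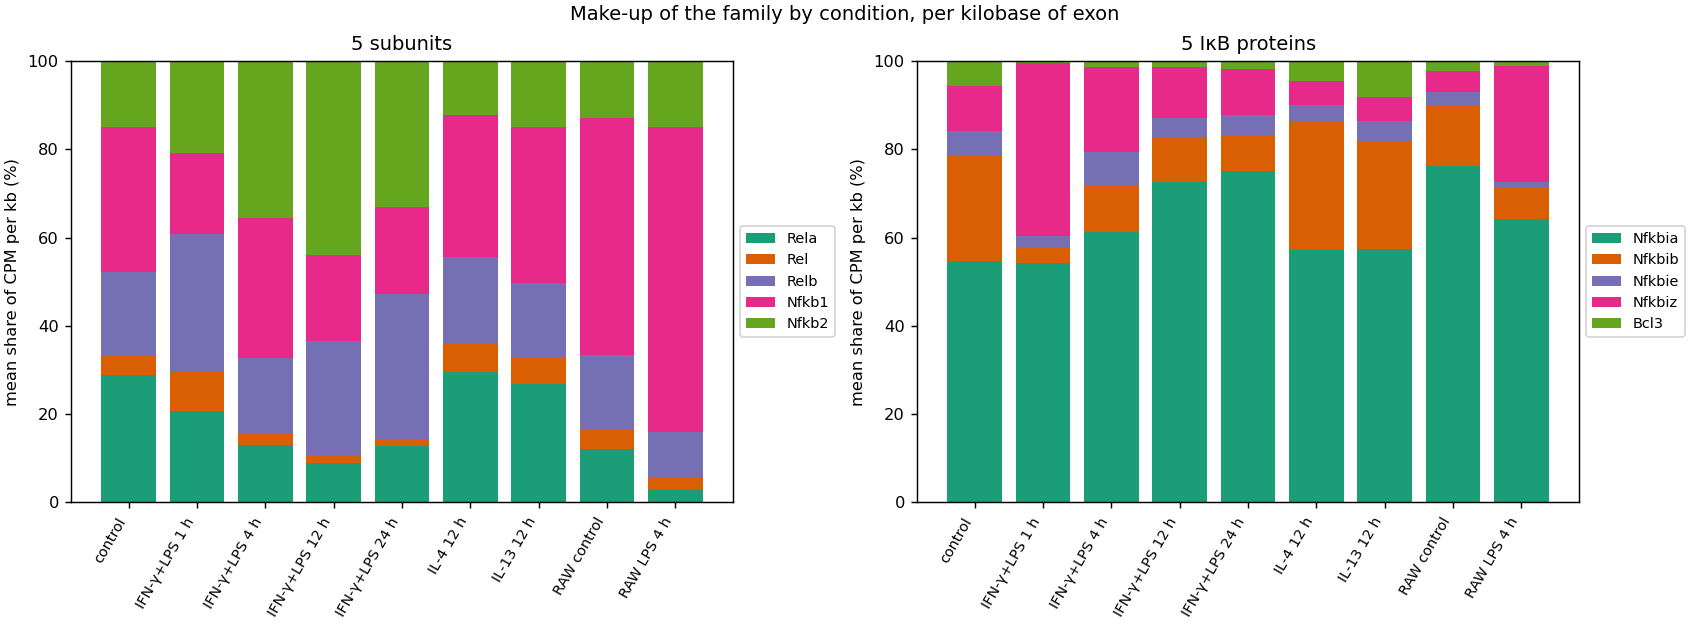
Mean share of each gene, in percent of the summed CPM per kilobase of exon, within the 5 subunits (left) and the 5 IκB genes (right) for each of the 9 groups. The Nfkb2 segment is widest at 12 h of IFN-γ/LPS (44.0%), the Nfkbiz segment at 1 h (39.1%), and Nfkb1 takes 69.3% of the subunits in LPS-treated RAW264.7.

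With IL-4 and IL-13, the M2 stimuli, most of the family stayed near its control level. Both were given for 12 h and the control was labelled 4 h, so treatment and culture time cannot be told apart here. Nfkbiz was the only member called with IL-4 (1 of 9 tested lower, background 1.64%) and the only one with IL-13 (1 of 9 lower, background 2.38%). Nfkbiz was at 7.29, 8.24 and 8.28 CPM with IL-4 and at 5.70, 9.73 and 8.03 CPM with IL-13, and all 6 samples lay below the lowest control sample of 15.8 CPM. The log2 change was -1.32 ± 0.26 with IL-4 (edgeR adjusted p = 0.000153) and -1.34 ± 0.26 with IL-13 (adjusted p = 7.20e-05), from 10 to 19 reads per treated library. Nfkbie had the next largest changes, -0.95 ± 0.44 with IL-4 (adjusted p = 0.161) and -0.74 ± 0.42 with IL-13 (adjusted p = 0.246), at 2.01 to 6.14 CPM. The IL-4 samples of Nfkbie, at 4.17, 2.75 and 2.96 CPM, lay below its control samples, and the IL-13 samples overlapped with them. Rel was the member with the largest positive change, 0.39 ± 0.24 and 0.41 ± 0.24 (adjusted p = 0.336 and 0.259). Its IL-4 samples, at 19.8, 18.1 and 17.7 CPM, lay above the control samples, whereas the IL-13 samples, at 10.3, 23.5 and 22.6 CPM, lay on both sides of them.

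The other 6 members tested (Rela, Relb, Nfkb1, Nfkb2, Nfkbia and Nfkbib) had log2 changes between -0.40 and 0.08 with either cytokine. Nfkbia was at 37.0, 36.8 and 23.6 CPM with IL-4 and at 37.6, 28.7 and 29.1 CPM with IL-13, overlapping with its control samples. Rela was at 31.2, 31.3 and 31.3 CPM with IL-4 and at 26.2, 31.7 and 32.1 CPM with IL-13, again overlapping with the control. The IL-4 samples of Nfkb2, at 21.9, 23.1 and 15.4 CPM, lay below its control samples, and the IL-13 samples overlapped with them. Bcl3, at 1.77 to 4.40 CPM with IL-4 and 4.09 to 6.84 CPM with IL-13, did not pass the filter on low counts in this fit. No member differed between IL-13 and IL-4 by edgeR at an FDR of 0.01, with changes of -0.24 to 0.34, nor did any by DESeq2, and 0.0540% of genes were called higher and 0.0108% lower in that comparison. None of the 9 had an unadjusted p below 0.05 there.

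Set directly against each other at 12 h, IFN-γ/LPS exceeded IL-4 in 8 of 10 members (background 12.4% of 10612 genes) and IL-13 in 8 of 10 (background 12.2%). Nfkbiz differed most, by 5.26 ± 0.15 on the log2 scale against IL-4 (edgeR adjusted p = 7.87e-45) and 5.27 ± 0.15 against IL-13 (adjusted p = 3.40e-45). Nfkbia followed at 4.48 ± 0.12 and 4.53 ± 0.12, Nfkbie at 4.34 and 4.13, and Nfkb2 at 4.13 and 3.79. Nfkbib (2.68 and 2.91), Relb (2.63 and 2.81), Bcl3 (2.34 and 1.61) and Nfkb1 (1.58 and 1.37) were also called against both. Rela (0.59 and 0.65) and Rel (0.51 and 0.48) stayed below the cutoff of 1. In the ratio of IκB genes to subunits, the 12 h IFN-γ/LPS samples (3.16 to 3.68) lay above the IL-4 samples (0.829 to 1.05) and the IL-13 samples (0.696 to 0.941).

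In RAW264.7 cells, LPS for 4 h raised 9 of the 10 members (background 5.82% of 9406 genes tested), and Rela was the exception. Bcl3, at 6 and 9 reads in the controls, and Nfkbie, at 18 and 7, passed the filter on low counts in the 4-sample fit only with their LPS libraries. The count of 9 is therefore in part fixed by the filter. With 2 samples per group, the fit took nearly all of its error from other genes, so the adjusted p-values below come from the fit of all 25 samples, which gave the same 9 calls, whereas the changes and SEs are those of the 4-sample fit. Rela was at 13.3 and 7.24 CPM without and 11.2 and 7.64 CPM with LPS, with overlapping samples and a change of -0.11 ± 0.30 (25-sample edgeR adjusted p = 0.802). The direction of this change depended on the sample left out, from -0.46 to 0.40. Nfkbiz, at 13.3 and 12.7 CPM without and 491 and 481 CPM with LPS, had the largest change, 5.26 ± 0.12 (adjusted p = 3.31e-43).

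Of the other subunit genes in RAW264.7, Nfkb1 went from 66.3 and 71.7 to 346 and 343 CPM (2.36 ± 0.10, 25-sample edgeR adjusted p = 2.39e-20) and Nfkb2 from 14.03 and 19.9 to 73.7 and 77.4 CPM (2.20 ± 0.17, adjusted p = 4.31e-17). Rel went from 9.47 and 9.77 to 22.4 and 27.1 CPM (1.41 ± 0.24, adjusted p = 1.82e-05), and Relb from 12.6 and 10.9 to 28.0 and 26.4 CPM (1.25 ± 0.22, adjusted p = 1.15e-05). In each of these 4 genes both treated samples lay above both controls. Among the IκB genes, Nfkbia went from 77.2 and 78.6 to 449 and 453 CPM (2.58 ± 0.09, adjusted p = 4.05e-29) and Nfkbib from 20.0 and 18.5 to 70.9 and 65.3 CPM (1.86 ± 0.16, adjusted p = 2.14e-13). The calls of Nfkbie, from 6.31 and 2.53 to 13.2 and 12.8 CPM (1.58 ± 0.34, adjusted p = 0.00022), and Bcl3, from 2.10 and 3.26 to 8.82 and 9.37 CPM (1.79 ± 0.41, adjusted p = 0.000872), rested on few reads. DESeq2 did not call either, and leaving out the second control sample lost Nfkbie (1.09; 2.38 without the first) and leaving out the first lost Bcl3 (1.51).

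Untreated RAW264.7 cells and untreated BMDMs differed in 1 member by the cutoffs, Rela, which was lower in RAW264.7 (1 of 10, background 25.0% of genes called lower). No member was called higher, whereas 2388 of 10612 genes tested were. The log2 difference of Rela was -1.68 ± 0.24 (edgeR adjusted p = 2.73e-09), from 32.6 CPM in BMDMs to 10.3 CPM in RAW264.7. Nfkbia was higher in both RAW264.7 controls than in every BMDM control, by 0.91 ± 0.14 (adjusted p = 1.82e-08), short of the cutoff of 1, which it passed with library-size scaling (1.16) or without the second BMDM control (1.01). Nfkb1, with a difference of 0.27 ± 0.16, took 53.7% ± 3.3 (n = 2) of the subunit level per kilobase in untreated and 69.3% ± 0.1 in LPS-treated RAW264.7, against 32.9% ± 1.9 in control BMDMs and 31.7% ± 1.4 at 4 h of IFN-γ/LPS. Rela made up 2.88% ± 0.75 of the subunits in LPS-treated RAW264.7 and 12.9% ± 1.0 in BMDMs at 4 h of IFN-γ/LPS.

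The 4 h change in RAW264.7 was smaller than the 4 h change in BMDMs for 8 of the 10 members by a test of the difference itself (background 11.1% of genes called lower). BMDMs had also received IFN-γ, so the cell type and the cytokine cannot be told apart. The difference in log2 change was largest for Nfkbie, -3.86 ± 0.49 (edgeR adjusted p = 6.19e-10), from RAW264.7 controls with 18 and 7 reads, and was -3.07 without the first and -4.35 without the second of them. Next were Nfkb2, -2.75 ± 0.25 (adjusted p = 1.03e-15), Nfkbia, -2.64 ± 0.17 (adjusted p = 2.58e-22) and Rela, -2.63 ± 0.35 (adjusted p = 3.37e-09). Relb (-2.28 ± 0.29), Nfkbib (-2.05 ± 0.25), Rel (-1.62 ± 0.35) and Nfkb1 (-1.27 ± 0.20) were called too, Nfkb1 not with library-size scaling (-0.82). Nfkbiz had the smallest difference, -0.71 ± 0.22 (adjusted p = 0.00887), under the cutoff of 1, and that of Bcl3 was -1.23 ± 0.59 (adjusted p = 0.102).

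**Figure D4:**
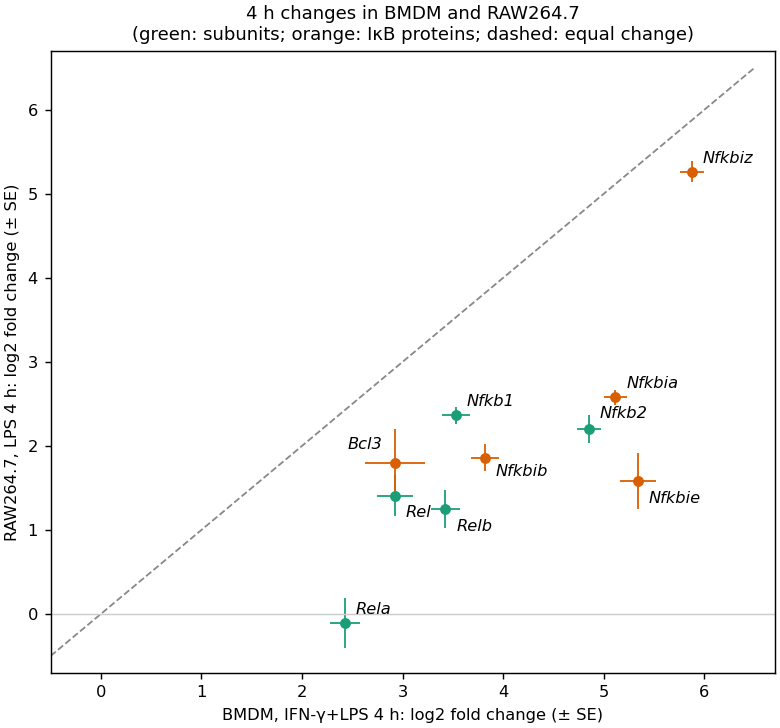
Log2 fold change at 4 h in BMDMs given IFN-γ/LPS (x axis) against that in RAW264.7 given LPS (y axis), with bars of ± 1 SE and a dashed line of equal change. All 10 genes lie below the line, Nfkbiz nearest to it and Nfkbie farthest, and Rela lies near 0 in RAW264.7.

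Other genes of the pathway were counted in lists. A list of 22 genes held kinases and adaptors of the pathway, the IκB kinases among them. It was not sorted by whether a product promotes or restrains the signal. Of these 22 genes, 11 rose and 2 fell at 4 h of IFN-γ/LPS, against a background of 16.1% of genes higher and 17.7% lower. Their median log2 change was 0.95 (-0.07 over all genes). Those with the largest changes were Birc3, a ubiquitin ligase (3.32 ± 0.15, from 16.5 ± 2.7 to 175 ± 7 CPM), Myd88, the adaptor of Toll-like receptors (3.004 ± 0.13, from 45.5 ± 4.7 to 386 ± 37 CPM), and Traf2, another adaptor (2.52 ± 0.18, from 13.7 ± 4.5 to 82.8 ± 2.9 CPM). The 2 that fell, named after their values were seen, were Map3k14, the kinase that drives processing of the Nfkb2 product (-1.91), and Tab1 (-1.09). In RAW264.7, 4 of 21 tested rose and none fell (background 5.82% and 5.25%, median 0.29), namely Ikbke (2.93), Irak2 (1.88), Map3k8 (1.52) and Irak3 (1.09), also named with their values known. The RAW264.7 calls of this and the following lists come from the 4-sample fit, which took nearly all of its error from other genes. With IL-4 and with IL-13 edgeR called none of 22 (medians -0.12 and -0.17), with 3 and 7 at an unadjusted p below 0.05.

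Of 12 genes of deubiquitinases and other brakes on the pathway, 5 rose and 1 fell at 4 h (background 16.1% and 17.7%, median 0.58). Tnfaip3, which encodes the ubiquitin-editing enzyme A20, rose from 55.6 ± 9.6 to 3821 ± 101 CPM (6.02 ± 0.11), Tnip3 from 16.2 ± 6.6 to 356 ± 37 CPM (4.38 ± 0.15) and N4bp1 from 40.4 ± 4.5 to 313 ± 4 CPM (2.87 ± 0.12). The others called, named after their values were seen, were Tnip1 (2.82), Nfkbid (1.12) and Pdlim2 (-1.06). In RAW264.7, Tnfaip3 (3.43), Tnip1 (2.49) and Nfkbid (1.05) were the 3 of 11 tested that rose (background 5.82%), again named with their values known. With IL-13, 1 of 12 rose, Tnip3 (0.90, background 2.98%), and with IL-4 (background 2.22%) edgeR called none, with 5 at an unadjusted p below 0.05.

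Of 20 textbook NF-κB target genes, 18 of the 19 tested rose at 4 h and none fell (background 16.1% and 17.7%). The median change was 8.27, also when the 2 genes at 0 in every control library were set to the bound that 3 counts over the control group would give. The exceptions were Bcl2l1, an anti-apoptotic gene (0.05, adjusted p = 0.873), and Csf2, which was not tested. Il6 and Nos2, the genes of a cytokine and of inducible nitric oxide synthase, were at 0 in the control and at 688 ± 58 and 446 ± 61 CPM at 4 h, and Il12b was at 0.356 ± 0.308 and 3121 ± 229 CPM. In RAW264.7, all 17 tested targets rose (background 5.82%, median 4.96), and the 3 not tested, Il12b, Cxcl1 and Vcam1, were at 0 in untreated and treated samples. Targets at or near 0 in untreated cells, such as Il6 and Nos2 in both cell types, passed the filter on low counts only through treated samples. For such genes, being tested already required a rise, so the counts of 18 and 17 are in part fixed by the filter. With IL-4, 2 of 9 tested fell (background 1.64%), Ccl3 (-1.19) and Ccl4 (-0.72), and with IL-13 3 of 9 fell (background 2.38%), Icosl (-1.83), Ccl3 (-1.17) and Tnf (-0.72).

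Across the 9 group means of log2 CPM, each member was compared with 8933 other genes by Pearson's r. These r values are descriptive, over 9 points that share 1 normalization. The closest genes were Dyrk2 (0.994) and Zfp945 (0.985) for Rela, Smndc1 (0.985) and 3110001I22Rik (0.976) for Rel, Cflar (0.987) and Gbp5 (0.985) for Relb, Gramd1b (0.986) and Etv6 (0.977) for Nfkb1, and Cd69 (0.989) and Rsad2 (0.989) for Nfkb2. For the IκB genes they were Tnf (0.997) and Socs3 (0.995) for Nfkbia, Helz2 (0.989) and Ifih1 (0.989) for Nfkbib, Ifih1 (0.982) and Relb (0.981) for Nfkbie, Pde4b (0.980) and Cxcl2 (0.979) for Nfkbiz, and Stx11 (0.984) and Tnip1 (0.980) for Bcl3. Within the family, Relb and Nfkbie were the most alike pair (0.981), and Rela and Nfkb1 the least (0.389).

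Antisense counts on the members were few. Over all 25 samples they made up 0.112% (Nfkbie) to 1.30% (Nfkb2) of a member's counts on both strands, against 1.19% over all genes without Rn45s. Nfkb2, whose exons overlap those of 2 genes on the opposite strand, was the only member above that value, with 101 antisense and 7681 sense counts. In the time course its antisense counts summed to 6 in the control and to 25 at 4 h, while its sense counts summed to 147 and 2875. Counting both strands together changed no call of a member for which a single value is given.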

How the data were processed

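RNA-seq libraries from rRNA-depleted, strand-marked RNA were measured for 21 BMDM and 4 RAW264.7 samples. The authors trimmed reads with Trimmomatic 0.33, aligned them with STAR 2.5.1 to mm10 (annotation release not given in the sources used here) and deposited raw whole-number counts per gene, unstranded and for each strand. The sense column was used. Reads on no gene feature (62.7% to 69.1% of those on genes, ambiguous or on no feature) and Rn45s were left out of library sizes and tests. Groups came from the sample labels, and the methods describe biological triplicates. Genes passed filterByExpr by group and were fitted with edgeR 4.0.16 (R 4.3.3; TMM, robust quasi-likelihood F test, Benjamini-Hochberg adjustment per comparison): 15 time course samples, 9 control, IL-4 and IL-13 samples, 4 RAW264.7 samples, and all 25 for comparisons across these. The SE is the absolute log2 change over the square root of F. The log2 cutoff of 1 is the study's for transcription factors after IFN-γ/LPS and 0.7 its cutoff for IL-4 and IL-13; for RAW264.7, where the study used 2, 1 was kept. All 10 members are named; of each pathway list, the 3 genes with the largest called change at 4 h whose samples do not overlap with the control; and for each member the 2 most similar genes. The members and lists were chosen with earlier results of these data known. Scripts were tested on simulated counts. Replicates differed by 1.30 to 4.53 times sampling variance (23 pairs), which cannot tell separate cultures from repeated libraries of the same RNA. Alternatives were DESeq2 1.42.0, other scalings, filters, cutoffs, strands and sample sets, and a replicate block.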

Additional observations from a re-analysis of the deposited data

Results flagged for a closer look

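The change in RAW264.7 at 4 h differed from that in BMDMs in a test of the difference for 8 of 10 members by both cutoffs (background 11.1% of genes), and Nfkbiz had an adjusted p of 0.00887 by edgeR but lay under the log2 cutoff. The differences in log2 change were -2.63 for Rela, -1.62 for Rel, -2.28 for Relb, -1.27 for Nfkb1, -2.75 for Nfkb2, -2.64 for Nfkbia, -2.05 for Nfkbib, -3.86 for Nfkbie and -0.71 for Nfkbiz. IFN-γ was given to the BMDMs alone, so cytokine and cell type cannot be told apart.

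Antisense counts, left out of the main comparisons, were above those of the control libraries in some groups (sums over 3 libraries). They were 4 for Relb, 10 for Nfkb1, 25 for Nfkb2, 4 for Nfkbib and 15 for Nfkbiz at 4 h of IFN-γ/LPS. At 1 h they were 12 for Nfkbia and 39 for Nfkbiz, and Nfkb2 had 16 at 12 h and 19 at 24 h. Sense counts were higher in the same groups, and their part in the antisense counts was not tested.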

How the results depend on the processing

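From 1 h to 4 h, the count of higher members was 5 and became 2 with library-size scaling, 2 at a log2 cutoff of 1.5 and 3 to 5 with a sample left out, and the count of lower members became 0 at the cutoff of 1.5. In this step, 750 of 9568 genes were called higher with library-size scaling and 1059 of 9832 without the first 4 h sample. From 4 h to 12 h, 5 members were lower at a cutoff of 1.5. In RAW264.7, 4 members were higher at a cutoff of 2. The share of all genes at these other cutoffs, or at an unadjusted p below 0.05, is not given here, so such counts have no background beside them. Between untreated RAW264.7 and BMDMs, the count of higher members was 1 with library-size scaling (2969 of 10612 genes higher) and 0 to 1 with a sample left out. The 1 came without the second BMDM control, where 2351 of 10600 genes were higher. Shares from counts instead of counts per kilobase were 22.2% for Rela in the control, 40.1% for Nfkb2 at 4 h and 61.7% for Nfkbiz at 1 h. The change of Rel from 1 h to 4 h was -0.28 with library-size scaling and -0.0113 to 0.12 with a sample left out, and that of Rela in RAW264.7 was -0.46 to 0.40 with a sample left out. The cause of these shifts was not tested.

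Deviations from the group mean were correlated between samples with the same replicate number. The mean r was 0.021 over the time course (highest pair 0.175) and 0.0081 over the cytokine samples (highest pair 0.097), with the lowest pair below 0 in each. Samples with different numbers had a mean r of -0.011 and -0.0041. These values cannot show whether the samples were paired. With the replicate block, 10 members were higher at 4 h and no call of a member given singly changed. Of 117 changes of single members, DESeq2 altered 3 calls and library-size scaling 8, besides the reversal of Rel. The low counts of Bcl3 and Nfkbie limit their precision.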
